A study of Arabidopsis thaliana with 18 samples.

Results

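Roots of 2 Arabidopsis thaliana lines grown without iron were compared on Affymetrix ATH1 arrays. One line is ubc13A, labelled as a homozygous mutant of a UBC13 gene. The other, CsUBC13-OE, overexpresses the UBC13 gene of cucumber. Both lines are in the Col-0 strain. Seedlings 10 days old were moved to ES medium to which no FeEDTA had been added, and their roots were frozen 3 days later. The comparison uses 6 of the 18 arrays, 3 biological replicates for each line, and all 22746 probe sets of the 22810 that are not array controls. The arrays that complete the series are the same lines on medium with FeEDTA and Col-0 wild type at both supplies, again with 3 replicates in each group. The labels name no promoter, no number of independent lines and no batch, and they do not say how many plants gave a root sample. The ubc13A samples were numbered in a block apart from those of Col-0 and CsUBC13-OE. Whether that block was also a batch is not stated, so the ubc13A line and such a batch cannot be told apart.

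UBC13 proteins are ubiquitin-conjugating enzymes (E2s). With a UEV partner, an E2-like protein without the catalytic cysteine, they join ubiquitin molecules through lysine 63, a linkage used in DNA damage tolerance and in signalling rather than mainly in protein breakdown. Arabidopsis has a pair of UBC13 genes, named UBC35 and UBC36 in the annotation. Roots short of iron acidify the soil, release coumarins that dissolve iron, reduce ferric iron at the surface and import ferrous iron, under a cascade of basic helix-loop-helix factors.

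Each value is a linear signal intensity that the authors scaled to the same 2% trimmed mean of 500 on every array. Differences are given as ubc13A minus CsUBC13-OE on the log2(signal + 16) scale, where the change of a dim gene is understated. A probe set was called at a Benjamini-Hochberg adjusted p under 0.05 in limma, and adjusted p-values below are from that fit. Array signals carry no read depth, and precision rests on how many arrays there are. The standard error (SE) of a difference had a median of 0.18. Correlations between the 18 arrays ran from 0.958 to 0.991. CsUBC13-OE with Fe replicate 2 stood apart on the third principal component, at -54.0 against -15.2 to 17.1 for the other arrays. Its signals enter only the group means with Fe, but its deviation enters every SE and p-value, since 1 fit holds all 18 arrays. No fit of the comparison without Fe left out this array alone. A fit of only the arrays compared, which leaves it out along with the other groups, called 2 probe sets without Fe. No detection calls were used, so signals below about 60 are not shown to lie above background.

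Of the 22746 probe sets, 11 were called between the lines without Fe, which is 0.0484%. The 6 called higher in ubc13A are 0.0264% and the 5 called lower are 0.022% of those tested. In ubc13A roots, transcripts of 3 plastid genes and of the defensin gene PDF2.1 were higher, and those of the glucosyltransferase gene UGT84A1 and of the stress-responsive gene AT2G21640 were lower. The other calls were 4 unnamed probe sets and 1 shared by a gene pair. At an unadjusted p under 0.05 there were 1923 probe sets. In bulk roots, fewer cells of a type and less RNA per cell cannot be told apart.

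The targeted genes were examined first. The array measures UBC35 and UBC36 together, on the probe set 264303_s_at, so it cannot show the loss of 1 of them, and the cucumber gene has no probe set here. Its signal was 3953.1, 4013.1 and 4731.9 in CsUBC13-OE and 2477.4, 3075.5 and 2620.7 in ubc13A. All 3 ubc13A arrays lay below all 3 CsUBC13-OE arrays, as they did with Fe. The difference was -0.63 (SE 0.15, adjusted p = 0.159) without Fe and -0.52 with Fe, and it did not pass the test. With a variance trend and robust moderation in limma the same difference without Fe was called (adjusted p = 0.0395).

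Among the genes called higher, PDF2.1 encodes a small peptide of the plant defensin family. Its signal was 127.0, 169.0 and 156.3 in CsUBC13-OE and 604.1, 434.8 and 355.5 in ubc13A. The lines did not overlap, and the difference was 1.50 (SE 0.22, adjusted p = 0.0212). Without Fe, PDF2.1 fell by 1.96 in Col-0, fell by 2.13 in CsUBC13-OE and fell by 1.65 in ubc13A on the log2 scale, each past the threshold. With Fe its line difference was 1.02 (adjusted p = 0.111).

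The 3 other named genes called higher lie on the plastid genome. ccsA encodes a protein needed to attach haem to c-type cytochromes of the thylakoid. It had signals of 890.1, 894.9 and 800.4 in CsUBC13-OE against 2526.1, 2615.7 and 2052.5 in ubc13A, a difference of 1.45 (SE 0.21, adjusted p = 0.0158). psaB, for a core protein of photosystem I, had 808.8, 866.8 and 597.9 against 1828.3, 2284.8 and 1523.5, a difference of 1.29 (SE 0.19, adjusted p = 0.0158). rbcL, for the large subunit of Rubisco, had 388.4, 442.1 and 363.7 against 862.6, 726.0 and 688.2, a difference of 0.90 (SE 0.15, adjusted p = 0.0413). In all 3 genes the lowest ubc13A array was well above the highest CsUBC13-OE array.

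UGT84A1 was called lower. Its enzyme puts glucose on hydroxycinnamic acids such as sinapate, the building blocks of phenylpropanoid esters. The signal was 196.2, 232.8 and 173.9 in CsUBC13-OE and 35.4, 36.5 and 42.8 in ubc13A, a difference of -1.99 (SE 0.25, adjusted p = 0.00719). The ubc13A signals of UGT84A1 are not shown to lie above background, so the size is uncertain: it was -2.36 with a pseudocount of 1 and -1.37 with one of 64, called in both. Its neighbours on the chromosome, UGT84A3 and UGT84A4, differed by -0.13 (SE 0.39) and -0.04 (SE 0.17), with overlapping arrays. Col-0 without Fe had 203.5, 210.5 and 143.1 for UGT84A1, within or near the range of CsUBC13-OE. With Fe the ubc13A arrays were again all lower, with a difference of -1.15 (adjusted p = 0.111).

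AT2G21640, a gene used as a marker of oxidative stress, had 844.5, 566.1 and 935.9 in CsUBC13-OE and 292.0, 290.5 and 387.5 in ubc13A. The lines did not overlap, and the difference was -1.22 (SE 0.19, adjusted p = 0.0262). The gene rose without Fe in each line, by 1.57 in Col-0, by 1.49 in CsUBC13-OE and by 0.90 in ubc13A. With Fe the line difference was -0.63 (adjusted p = 0.213).

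**Figure D1:**
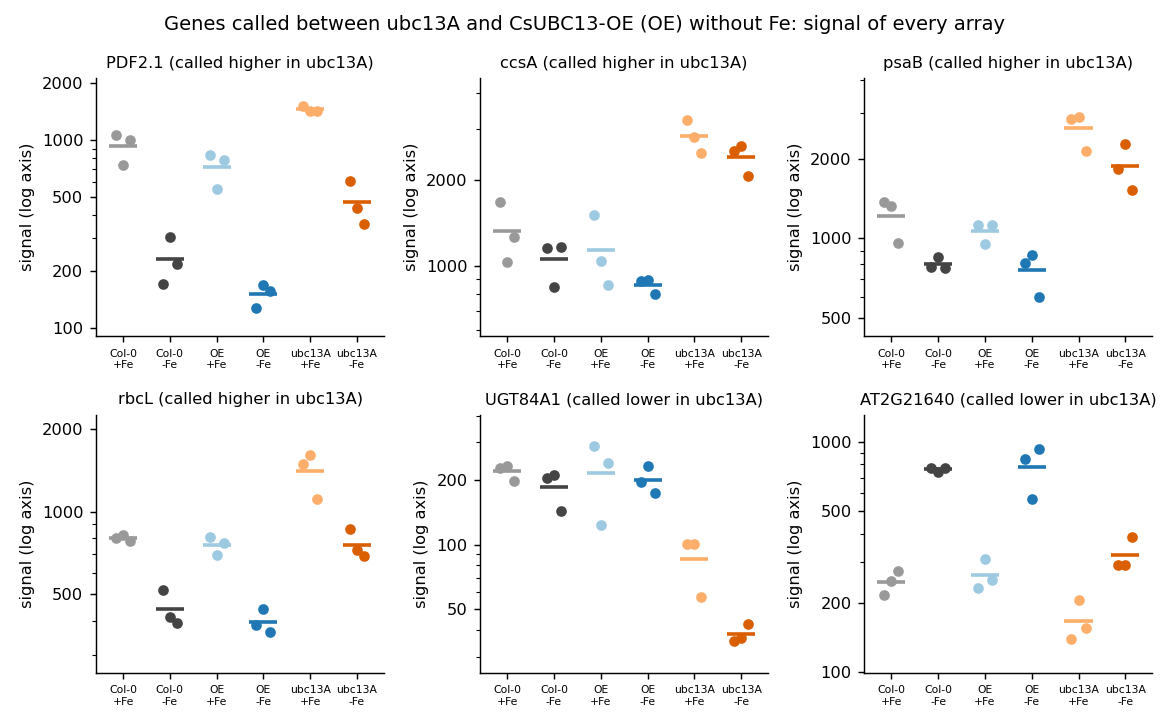
Signal (log axis) of the 6 genes called between the lines without Fe, on each of the 18 arrays; points are arrays, horizontal bars are means of 3, OE is CsUBC13-OE, and +Fe and -Fe are medium with and without FeEDTA. Without Fe the 3 ubc13A arrays lie wholly above or below the 3 CsUBC13-OE arrays in each panel, for UGT84A1 at 35.4 to 42.8 against 173.9 to 232.8.

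The unnamed probe set 252468_at had 173.4, 146.2 and 142.7 in CsUBC13-OE and 446.3, 380.4 and 442.6 in ubc13A, a difference of 1.37 (SE 0.18, adjusted p = 0.00936). Col-0 without Fe had 612.0, 596.4 and 590.1, so that here CsUBC13-OE was the line far from Col-0, by -1.86. Of the unnamed probe sets called lower in ubc13A, 250558_at differed by -1.41 (SE 0.19), 247215_at by -1.29 (SE 0.15) and 252864_at by -0.65 (SE 0.11). Of these, 247215_at had 367.5, 322.9 and 304.4 in CsUBC13-OE against 127.4, 103.6 and 151.1 in ubc13A. 264273_s_at, which matches AT1G60340 and AT1G60300 together and was singled out after its values were seen, had 1.7, 2.5 and 2.9 against 18, 26.7 and 28.8 (difference 1.13, adjusted p = 0.00719). These signals are so dim that none is shown to lie above background.

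Col-0 without Fe was nearer to CsUBC13-OE than to ubc13A for 10 of the 11 called probe sets, and nearer to ubc13A for 252468_at alone. The same count over all probe sets is not given here, so this is not shown to be particular to the called ones. At an unadjusted p under 0.05 in limma, 2524 probe sets differed from Col-0 in ubc13A and 792 in CsUBC13-OE. Against Col-0, 11 probe sets were called in ubc13A (0.0484%) and 3 in CsUBC13-OE (0.0132%). Without Fe, replicate numbers paired Col-0 with CsUBC13-OE, and in a limma fit of those 6 arrays blocked by number none of the 3 was called, with 1375 at an unadjusted p under 0.05. The adjusted p of 252468_at was then 0.626. In the limma fit of those arrays without the block 2 were called, and its adjusted p was 0.0333. Its difference was -1.86 in both fits, and the blocked fit leaves few residual degrees of freedom. Those comparisons share arrays with the line difference and are given only beside it. Whether a batch set the ubc13A arrays apart was not tested. UGT84A1 differed from Col-0 by -1.88 in ubc13A and by 0.11 in CsUBC13-OE, PDF2.1 by 0.96 and -0.54, and AT2G21640 by -1.21 and 0.01.

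The number of calls depended on single arrays and on the fit. Without CsUBC13-OE replicate 1, 2 or 3 it was 5, 5 and 4, without ubc13A replicate 1, 2 or 3 it was 2, 5 and 12, and leaving out the dimmest 40% of probe sets gave 52. Of the 11 probe sets, 247215_at and 264273_s_at were called in all 6 fits that left out 1 array, and UGT84A1 in 5, with an adjusted p of 0.0537 without ubc13A replicate 1. 252468_at and 250558_at were called in 3 of the 6 and psaB and AT2G21640 in 2. PDF2.1 and ccsA were called in 1 of the 6, the fit without ubc13A replicate 3, and rbcL and 252864_at in none. Their directions could not change in these fits, since the arrays of the lines did not overlap for any called probe set.

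Beyond the calls, the rule for named genes took the next genes in order of unadjusted p whose arrays did not overlap between the lines. Such separation was seen for 2270 probe sets (9.98%) with ubc13A higher and 1644 (7.23%) with ubc13A lower. The 11 next genes on the higher side had adjusted p-values from 0.0678 to 0.118, and the 13 on the lower side from 0.0678 to 0.148, so none passed.

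On the higher side, 4 of the 11 were plastid genes, described below. AT1G77200, a transcription factor of the AP2/ERF family, had 54.5, 48.6 and 75.9 in CsUBC13-OE and 136.0, 121.8 and 139.5 in ubc13A, a difference of 0.99 (SE 0.19). AT5G62340, of the invertase and pectin methylesterase inhibitor family, had 798.7, 1251.6 and 1413.3 against 2986.3, 2413.8 and 2426.9, a difference with an SE of 0.24. AT5G24240 differed by 1.56 and AT1G01240 by 0.95. AT3G51560, of the TIR-NBS-LRR family of immune receptors, AT5G28420 and AT2G05390 differed by 0.96, 1.06 and 1.39, at signals below 60 on every array of both lines.

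On the lower side, AT5G62210, of the embryo-specific protein 3 family, had 1224.2, 759.4 and 708.0 in CsUBC13-OE and 315.4, 207.4 and 255.9 in ubc13A, a difference of -1.70 (SE 0.31). AT1G20270, of the 2-oxoglutarate and iron-dependent oxygenase family, had 287.6, 450.8 and 435.9 against 123.0, 148.5 and 187.1, a difference of -1.26. AT2G23910 differed by -1.37 and AT4G33550, of the lipid transfer protein family, by -0.89. AT5G15360 differed by -1.78, and there Col-0, at 12.1 to 34.2, lay with ubc13A (19.5 to 25.2) and not with CsUBC13-OE (108.9 to 120.5). The lower signals of AT5G15360 are not shown to lie above background, and with a pseudocount of 64 its difference was -1.05 (adjusted p = 0.0292). The remaining genes, AT4G19200, AT5G53420, CDI, AT1G04990, AT3G46340, AT3G43770, petA and APS3, differed by -0.47 to -1.16. The -1.16 was that of AT3G43770, at signals below 60 on every array of both lines, and it ran from -3.23 to -0.42 over the alternative fits. The ubc13A signals of AT3G46340, at 41.5, 43.9 and 49.6, are also not shown to lie above background.

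Among these lower genes were several that rose without Fe in Col-0. APS3, which encodes an ATP sulfurylase of sulphate assimilation, had 1046.6, 1113.0 and 1098.5 in CsUBC13-OE and 767.5, 798.7 and 726.9 in ubc13A, a difference of -0.50 (SE 0.11). It had risen by 1.49 in Col-0. CDI had 1952.2, 1996.1 and 2054.1 against 1444.8, 1469.8 and 1402.1, a difference of -0.47 (SE 0.10), after a rise of 1.39 in Col-0. AT4G19200 had 1966.6, 2079.5 and 2329.1 against 1426.0, 1509.7 and 1321.8, a difference of -0.58 (SE 0.10), after a rise of 0.99. With Fe, APS3 and CDI differed between the lines by 0.10 and -0.06, with overlapping arrays, whereas AT4G19200 differed by -0.65 and was called (adjusted p = 0.0278).

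**Figure D2:**
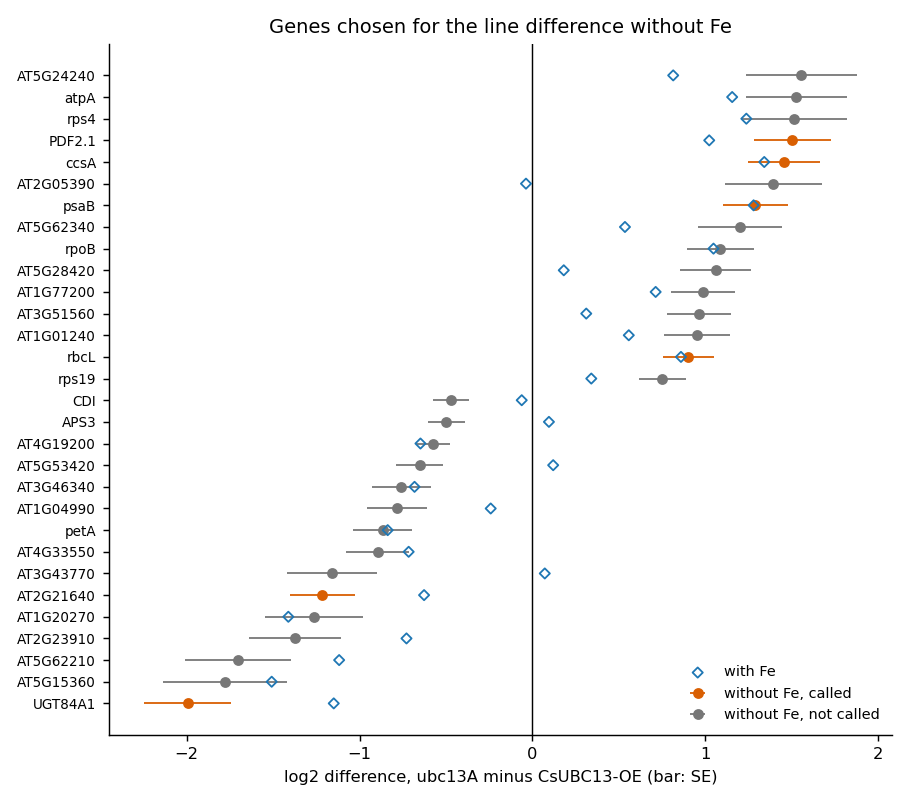
Difference between ubc13A and CsUBC13-OE of the 30 genes taken by the rule, on the log2(signal + 16) scale; filled points are values without Fe with their SE, called genes in orange, and open diamonds are the same genes with Fe. UGT84A1 lies at -1.99, against ubc13A signals not shown to lie above background, and psaB, ccsA and rpoB have nearly the same difference at both supplies, while AT2G05390, AT5G53420 and APS3 lie near 0 with Fe.

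The plastid genome stood out as a group, and its genes were made a list after those values were seen, so the counts describe it and test nothing. It encodes core subunits of the photosynthetic complexes, the plastid's own RNA polymerase and part of its ribosomes, and in roots it is transcribed in non-green plastids. The annotation named 69 of its 85 protein genes on the array. Of these 69, 3 were called higher and none lower. The arrays of the lines were separated, with ubc13A higher, for 35 genes (50.7%, against 9.73% of 13355 genes measured) and with ubc13A lower for 6 (8.7%, against 6.72%). The median difference of the 69 was 0.66, and that of all genes measured 0.04. With the dimmest 40% of probe sets left out, 14 of 60 plastid genes were called, 13 higher and 1 lower, among 52 of 13648 probe sets. In the other fits all 69 plastid genes and 22746 probe sets were tested. Median centring called 2 plastid genes among 10 probe sets, a pseudocount of 1 called 2 among 9, and quantile normalization 3 among 12. A pseudocount of 64 called 9 among 39, a variance trend 12 among 58, and only the arrays of the lines compared 0 among 2.

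All 5 measured photosystem I genes had higher signals on every ubc13A array than on any CsUBC13-OE array. psaA, for the partner of psaB in the reaction centre, had 134.5, 260.2 and 142.2 in CsUBC13-OE and 402.7, 768.3 and 411.9 in ubc13A, a difference of 1.47 (SE 0.31, adjusted p = 0.127). psaC and psaI, for smaller subunits, differed by 1.33 and 1.13, and psaJ by 0.28. The 3 genes for the beta subunits of the plastid RNA polymerase behaved alike: rpoB differed by 1.09, rpoC1 by 1.63 and rpoC2 by 0.84. The gene for its alpha subunit, rpoA, went the other way, with 2198.2, 1830.1 and 2575.6 in CsUBC13-OE against 1269.8, 1180.3 and 1760.0 in ubc13A, a difference of -0.65 (SE 0.33, adjusted p = 0.626). The size for rpoB is uncertain, as its CsUBC13-OE signals, at 60.6, 32.2 and 21.8, are mostly not shown to lie above background. With a pseudocount of 64 the rpoB difference was 0.65 (adjusted p = 0.0314).

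The ATP synthase genes also differed among themselves. atpA, for the alpha subunit, had 1313.2, 862.5 and 865.8 in CsUBC13-OE and 2525.3, 3559.4 and 2691.5 in ubc13A, a difference of 1.53 (SE 0.29, adjusted p = 0.0997). Its neighbours atpF and atpH, for membrane subunits, differed by 1.30 and 1.13. atpB and atpE, which are adjacent elsewhere on the genome, differed by 0.06 (SE 0.16) and -0.13 (SE 0.18), with signals of 4065.7 to 8429.3 that overlapped between the lines. Among ribosomal protein genes, rps4 had 908.5, 613.1 and 549.1 in CsUBC13-OE and 2101.3, 2226.1 and 1589.0 in ubc13A, a difference of 1.51 (SE 0.31), and rps19 differed by 0.75 (SE 0.14). Separated and higher arrays were seen for 9.73% of all genes measured, and separated and lower arrays for 6.72%. Higher were 3 of 6 ATP synthase genes, 5 of 10 NDH complex genes and 6 of 15 photosystem II genes. So were 5 of 15 ribosomal protein genes and 2 of 6 cytochrome b6f genes. Separated and lower was 1 gene in each of the NDH complex, ribosomal protein and cytochrome b6f classes.

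The direction turned between adjacent genes. accD, for a subunit of acetyl-CoA carboxylase, and psaI differed by 1.26 and 1.13. The next 3 genes in order, ycf4 for an assembly factor of photosystem I, cemA for an envelope membrane protein and petA for cytochrome f, differed by -0.61, -0.58 and -0.87. petA had 1897.3, 2085.3 and 2089.3 in CsUBC13-OE and 1032.5, 1150.7 and 1126.4 in ubc13A, without overlap (SE 0.17, adjusted p = 0.111). Likewise petB and petD, at 0.69 and 0.80, were followed, among the genes measured, by rpoA at -0.65 and rpl36, for a ribosomal protein, at -0.78. The greatest plastid difference was that of matK, a maturase of plastid introns, at 1.75, with a wide spread in CsUBC13-OE (969.2 to 2725.6, against 3953.0 to 6315.5 in ubc13A).

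With Fe, on other arrays, the plastid genes differed between the lines in much the same pattern. The sign was the same at both supplies for 59 of 69 genes (85.5%, against 59.1% of all genes measured). At both supplies, 25 genes were separated and higher in ubc13A (36.2%, against 1.67%) and 4 were separated and lower (5.8%, against 1.03%). Pearson's r between the differences at the 2 supplies was 0.911 across the 69 genes, against 0.241 across all 22746 probe sets. These are descriptions across genes of shared transcripts and shared arrays, not independent replicates. Without Fe, the Col-0 mean was nearer to CsUBC13-OE for 34 of the 35 genes that were higher and for 4 of the 6 that were lower. The share over all genes is not given here, so these counts are not shown to be particular to plastid genes.

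**Figure D3:**
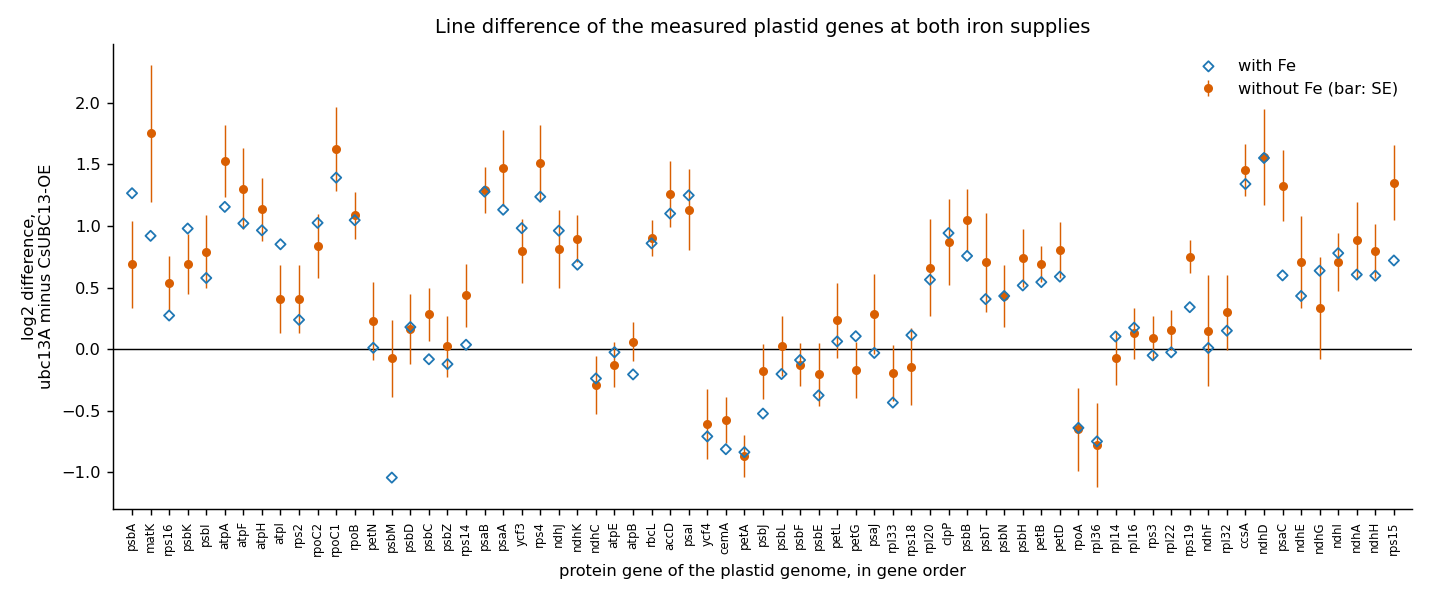
Difference between ubc13A and CsUBC13-OE (log2 scale) of 69 plastid protein genes in gene order; orange points with SE bars are values without Fe and blue diamonds values with Fe. Most points lie above 0, up to 1.75 for matK, and the stretches from ycf4 to petA and at rpoA and rpl36 lie below 0 at both supplies.

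Nuclear photosynthesis genes were examined beside the plastid genes. Of 46 on the list 9 were measured, none was called and none was separated. Their median difference was -0.00, within -0.40 to 0.19. The 4 measured of 13 markers of green shoot tissue summed to signals of 1911.3 to 2637.3 in CsUBC13-OE and 1857.3 to 2543.8 in ubc13A, so the lines overlapped. The part of green tissue in the plastid difference was otherwise not tested. With Fe, where the plastid genes also differed, the nuclear list had a median of -0.43, with 5 of 9 separated and lower in ubc13A, against 5.15% of all genes measured with Fe. Root hair markers, 3 measured of 8 (EXPA7, EXPA18 and XTH26), were not called and overlapped between the lines, at sums of 1452.0 to 1609.4 and 1217.7 to 1580.2. Founder cell markers of lateral roots, 3 measured of 4, summed to 292.6 to 426.1 in CsUBC13-OE and 234.2 to 299.0 in ubc13A, and no single marker was separated. No marker listed for endodermis, xylem, phloem or root cap had a probe set of its own name here, so those tissues were not checked.

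The same line difference was taken with Fe, where 11 probe sets were called (0.0484%), 6 higher and 5 lower. Median centring gave 5 and 8, quantile normalization 8 and 10, and leaving out CsUBC13-OE replicate 2 gave 10 calls, of which 6 were among the 11. Called at both supplies were ccsA, psaB and 252468_at. Of the 11 probe sets called without Fe, 9 had the same sign with Fe, against 59.1% of all genes measured. rbcL differed by 0.86 with Fe (adjusted p = 0.0539). The test of the difference between the supplies called no probe set in limma (0%), with 1162 of 22746 at an unadjusted p under 0.05. That count is close to what this threshold passes where nothing differs.

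The smallest adjusted p of that test was 0.0523, for the dim 264273_s_at, which differed by 1.13 without and by -0.32 with Fe. The next smallest p-values were those of 250325_s_at (2.25) and AT2G06140 (1.15) in the same direction, and in the other direction the smallest were those of AT3G20760 (-0.89), 251472_at (-1.73) and 252864_at (-0.71). Of these, 252864_at alone had signals above 60 without Fe, at 291.0, 307.6 and 315.4 in CsUBC13-OE and 196.0, 182.1 and 187.3 in ubc13A. Its lines overlapped with Fe, where the difference was 0.06. Not passing this test does not show that the lines differ equally at both supplies.

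**Figure D4:**
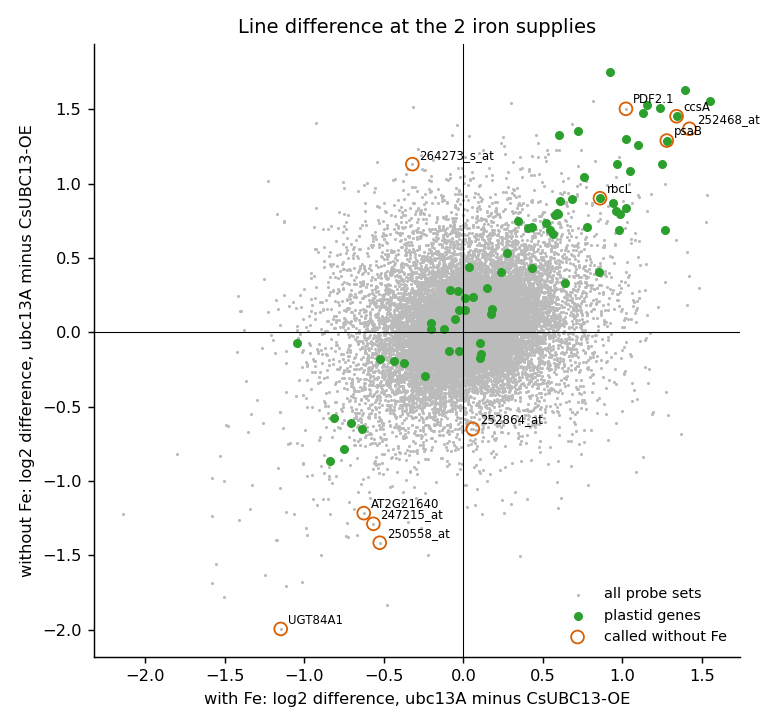
Difference between ubc13A and CsUBC13-OE (log2 scale) with Fe on the horizontal and without Fe on the vertical axis; grey points are all 22746 probe sets, green points 69 plastid genes and circles the 11 probe sets called without Fe. The plastid genes extend to the upper right (r = 0.911, against 0.241 over all), while 264273_s_at and 252864_at are circled far from 0 on the vertical axis alone.

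How the lines differed on iron-responsive genes was described with Col-0, whose arrays are not in the line difference. In Col-0, 503 probe sets (2.21%) were called higher and 467 (2.05%) lower without Fe. In a fit of the Col-0 arrays alone, blocked by replicate number since the numbers paired across the supplies, 256 were called higher and 149 lower. The shares given next became 77.34% and 70.47% for sets called in that fit, with the line difference fitted likewise. Median centring of the arrays moved that split from 51.9% to 63.2% higher. Of the 503 that rose in Col-0, 390 (77.5%) had lower signals in ubc13A than in CsUBC13-OE without Fe, against 43.9% of all probe sets. Of the 467 that fell, 347 (74.3%) had higher signals in ubc13A, against 56.1% of all. On most of these probe sets the line difference without Fe thus had the opposite sign to the Col-0 response. These counts alone do not say which line departed from Col-0. Deviations shared by Col-0 and CsUBC13-OE arrays of equal number, given below, can enter the shares through the choice of probe sets.

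The differences were small for each probe set. The median was -0.15 for those that rose in Col-0 and 0.15 for those that fell, against 0.03 over all probe sets, and 5 of the 970 were called. Arrays were separated and lower in ubc13A for 168 of the 503 (33.4%, against 7.23% of all), and separated and higher for 120 of the 467 (25.7%, against 9.98%). Where the response of Col-0 was at least 4-fold, 51 of 64 that rose were lower in ubc13A (79.7%) and 15 of 18 that fell were higher (83.3%). With Fe, 29 of those 64 were lower in ubc13A (45.3%, against 45.7% of all probe sets). Of those 18, 2 were higher with Fe (11.1%, against 54.3%) and 16 were lower (88.9%), so there the line difference mostly had the other sign.

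The median log2 signal of the 503 was 9.824, 9.760 and 9.746 in CsUBC13-OE without Fe and 9.670, 9.587 and 9.551 in ubc13A. The median of the 467 was 8.107, 8.293 and 8.053 in CsUBC13-OE and 8.426, 8.416 and 8.399 in ubc13A. In both sets the arrays of the lines were separated. With Fe, 55.3% of the 503 were lower and 42.0% of the 467 were higher in ubc13A, against 45.7% and 54.3% of all probe sets.

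Across the 970 probe sets, the line difference without Fe and the Col-0 response had an r of -0.495 and a slope of -0.124, and with Fe an r of 0.069. Genes are not independent replicates, so these are descriptions. Without Fe, the deviations of Col-0 and CsUBC13-OE arrays of equal number were correlated (0.297, 0.201 and 0.107), so the measures are not free of shared noise. With each Col-0 replicate set against CsUBC13-OE replicates of other numbers, r was -0.502, -0.458 and -0.435. The 970 probe sets were still chosen with all Col-0 arrays, so these values cannot remove noise shared through that choice. Over the 9 pairs of single arrays, the shares ranged from 60.2% to 81.5% for the 503 and from 60.8% to 73.2% for the 467.

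**Figure D5:**
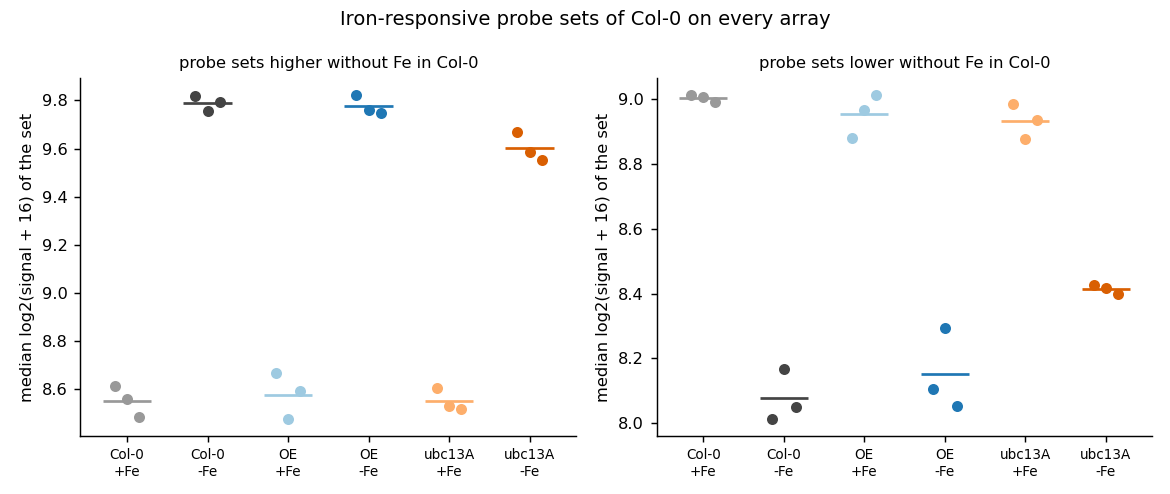
Median log2(signal + 16) on each of the 18 arrays for the 503 probe sets that rose (left) and the 467 that fell (right) without Fe in Col-0; points are arrays, bars the mean of 3, and OE is CsUBC13-OE; the vertical axes do not start at 0. Without Fe, ubc13A lies at 9.551 to 9.670 below CsUBC13-OE at 9.746 to 9.824 on the left, and at 8.399 to 8.426 above 8.053 to 8.293 on the right.

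Named genes of iron acquisition did not differ uniformly. Of 6 measured on the list, none was called, 3 were separated and lower in ubc13A (50%, against 6.72% of all genes measured), 1 was separated and higher (16.7%, against 9.73%), and the median was -0.32, against 0.04. IMA1, a short peptide that promotes the iron deficiency response, had 3810.1, 3160.2 and 3336.5 in CsUBC13-OE and 1842.4, 2511.6 and 2475.7 in ubc13A, a difference of -0.60 (SE 0.26, adjusted p = 0.54). PYE, a helix-loop-helix regulator, had 654.4, 726.6 and 675.5 against 512.6, 453.4 and 541.3, a difference of -0.44 (SE 0.18). BTSL1, an E3 ligase that restrains the response, differed by -0.23 and its relative BTSL2 by 0.22, both without overlap.

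BHLH101, another factor of the cascade, had 314.6, 666.5 and 637.0 in CsUBC13-OE and 520.5, 362.5 and 298.4 in ubc13A. These overlapped, and the difference of -0.40 had an SE of 0.42. In the same CsUBC13-OE and Col-0 groups replicate 1 was the lowest array (285.0 of 285.0, 690.3 and 779.2 in Col-0). Each of these genes except ILR3, which differed by -0.12 between the lines, was called higher without Fe in Col-0, IMA1 by 3.58 and BHLH101 by 4.63.

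Genes of coumarin synthesis were close to equal in the lines, although 4 of the 5 measured rose without Fe in Col-0. F6'H1, the dioxygenase that makes the scopoletin precursor, had 16274.1, 15687.4 and 19208.2 in CsUBC13-OE and 19365.2, 16801.4 and 15283.1 in ubc13A, a difference of 0.01 (SE 0.23). S8H, which makes fraxetin and had risen by 8.16 on the log2 scale in Col-0, had 7629.5, 9412.9 and 9228.6 against 9002.1, 10219.4 and 8842.6, a difference of 0.10 (SE 0.28). BGLU42, a glucosidase that frees coumarins for release, differed by 0.15 and COSY, coumarin synthase, by -0.11. In all 4 the arrays of the lines overlapped.

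Other lists held few differences. Most list genes have no probe set that the annotation gives to them alone, and 7 lists had no measured member. Of 12 ubiquitin-conjugating enzymes measured, none was called and 3 were separated and lower in ubc13A (25%, against 6.72% of all genes measured), with a median of -0.15: UBC27 by -0.30, UBC18 by -0.20 and UBC32 by -0.15. Of 48 UDP-glycosyltransferases, UGT84A1 was the only call, and 3 were separated and higher (6.25%, against 9.73% of all genes measured) and 7 lower (14.6%, against 6.72%), with a median of -0.07. UGT71C3 had 557 ± 97.8 (SD, n = 3) in CsUBC13-OE and 783 ± 24.5 in ubc13A, a difference of 0.49 that did not pass.

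Of 13 glutathione transferases none was called, 2 were separated and lower (15.4%, against 6.72% of all genes measured) and 1 was separated and higher (7.69%, against 9.73%). GSTU25 had a mean of 3869 ± 1823 (SD, n = 3) in CsUBC13-OE and 1262 ± 64.2 in ubc13A, a difference of -1.50 with an SE of 0.50 (adjusted p = 0.399). GSTU22 differed by -0.92 (SE 0.41). Both were separated, and both varied far more among the CsUBC13-OE arrays than among those of ubc13A. They also varied widely in Col-0 without Fe, with an SD of 1759 for GSTU25 and 832 for GSTU22. DFR, for the reductase that leads to anthocyanins, had 106 ± 77.1 and 22.5 ± 27.4, a difference of -1.68 (SE 0.52), with overlapping arrays. UF3GT, for an anthocyanin xylosyltransferase, differed by -0.50.

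For the lists that follow, the shares of all genes measured are again 9.73% separated and higher and 6.72% lower. Expansins and xyloglucan enzymes, 28 measured, had 2 genes separated in each direction (7.14% each) and a median of -0.02. EXPA15, which loosens cell walls, had 1066 ± 7.2 in CsUBC13-OE and 1460 ± 182 in ubc13A (SD, n = 3), a difference of 0.44 (SE 0.15). Of 18 auxin genes 3 were separated and higher (16.7%) and 1 lower (5.56%), with a median of -0.01: WAG2, a kinase that acts on auxin transporters, differed by 0.54 and IAA18, an auxin response repressor, by -0.27. Of 6 WRKY factors 2 were separated and lower (33.3%), WRKY53 by -0.43. Of 22 cytochromes P450, 1 was separated in each direction, as for 10 nitrate and nitrogen transporters, and no member of either was called.

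None of 5 root hair genes and 3 cell cycle genes was separated. Of 2 DNA damage genes measured, RAD5, a helicase and ligase of damage tolerance, was separated and higher by 0.65 (SE 0.25, adjusted p = 0.47) at signals of 36.2 ± 14.5 and 64.3 ± 13.1 (SD, n = 3). Of 5 zinc, copper and manganese genes, ZIP6, of the ZIP metal transporter family, was separated and higher by 0.32. The lists for jasmonate (2 measured), salicylate (1), ethylene (1) and cytosolic ribosomal proteins (1) had no call and no separated member.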

How the data were processed

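Roots gave total RNA by a Qiagen RNeasy kit, and biotin was added by in vitro transcription, per the labels' protocols, which do not name the primer of cDNA synthesis. Plastid transcripts mostly lack stable poly(A) tails. The authors deposited a signal intensity on a linear scale for each probe set of each array, with equal 2% trimmed means and no quantile normalization. The labels do not name the software that summarised the probes.

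The deposited intensities were taken to log2(signal + 16). limma 3.58.1 (R 4.3.3) then estimated 6 group means from 18 arrays, leaving 12 residual degrees of freedom. The 64 array controls were left out, and the Benjamini-Hochberg adjustment ran over 22746 probe sets. Nothing in the labels says that replicates came from separate cultures, beyond calling them biological, so p-values reflect the variation between these arrays. The fit was tested on simulated data. Plots were drawn with matplotlib 3.10.9.

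The platform annotation names 1 gene for 13513 probe sets, several for 503 and none for 8730. Names were updated through Entrez numbers with a RefSeq table, which matched 13436. Coordinates are not printed. In lists, a gene with several probe sets is represented by its brightest.

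The members, gene lists, alternatives and naming rule were chosen with earlier results of these data known. The rule took, in each direction, up to 15 called genes with separated arrays and the greatest difference, filled by the smallest unadjusted p. It added up to 4 called unnamed probe sets each way, the 3 strongest differences between supplies each way, up to 4 members of each list and the UBC13 and main iron genes. Other list members and the plastid genes were named after their values were seen. The symbols GR1 and CHI, which here stand for a glutathione reductase and a chitinase, were kept out of the lists. Replicate numbers did not pair ubc13A with CsUBC13-OE: correlations of same-numbered deviations were -0.031, 0 and -0.021 without Fe. By the same check they paired CsUBC13-OE with Col-0 without Fe (0.297, 0.201 and 0.107) and Col-0 without Fe with Col-0 with Fe (0.261, 0.112 and 0.153), and fits with the replicate number as a block are given beside those comparisons.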

Additional observations from a re-analysis of the deposited data

How the results depend on the processing

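The 11 probe sets called without Fe became 52 with the dimmest 40% of probe sets left out, 39 with a pseudocount of 64 and 58 with a variance trend and robust moderation. In a fit of only the arrays of the groups compared there were 2, and with the replicate block in that fit 0. Of the 11, 10 were among the 52, 11 among the 39 and 10 among the 58, and 1 was among the 2. Quantile normalization gave 12, median centring 10 and a pseudocount of 1 gave 9. Leaving out 1 array gave 2 to 12. The cause of these changes was not tested, except that fewer features or fewer arrays enter some fits by construction.

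With Fe, the 11 calls became 18 with quantile normalization, 64 without the dimmest 40%, 46 with a pseudocount of 64, 65 with the variance trend, 0 with only the groups compared and 0 with the replicate block. Leaving out 1 array gave 3 to 20. The difference between supplies, with 0 calls, had 2 with quantile normalization, 1 with median centring and 2 with a pseudocount of 1, and 0 to 1 leaving out 1 array. For CsUBC13-OE against Col-0 without Fe, the 3 calls became 2 with only the groups compared. They became 0 with the replicate block, a fit added after the data were seen. The share of falling Fe-responsive probe sets that were higher in ubc13A, 74.3%, was 68.64% with median centring and 69.2% to 76.63% leaving out 1 array.

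With the rising set called afresh under each alternative, the share of it that was lower in ubc13A lay between 71.43% and 81.71%. Sign changes were seen among values near 0 that were not called. F6'H1 was -0.041 with quantile normalization and -0.022 with median centring. Leaving out 1 array, F6'H1 ran from -0.084 to 0.095, AT2G06140 from -0.147 to 0.0073, atpB from -0.014 to 0.120, UGT84A3 from -0.400 to 0.164 and UGT84A4 from -0.108 to 0.023. Signals below 29 limit what can be said of 264273_s_at, whose difference was 2.91 with a pseudocount of 1 and 0.41 with one of 64.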

Other observations

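With Fe, several genes were called between ubc13A and CsUBC13-OE that did not pass without Fe, by limma with adjusted p-values over all probe sets. AT5G35940, of the jacalin lectin family, differed by -1.50 with Fe (adjusted p = 0.0278), and its difference without Fe did not pass (SE 0.23, adjusted p = 0.165). AT4G11290, of the peroxidase family, differed by -0.83 with Fe (adjusted p = 0.0278) and by -0.04 without Fe (SE 0.12). AT1G70810 differed by -0.67 and -0.30, and AT4G20320 by 0.80 and 0.30. For none of these genes did the test of the difference between supplies pass.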
